A study of Mus musculus with 8 samples.

Results

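Described here are 8 genes of hepatic glucose and fructose use, namely *Mlxipl*, *Slc2a2*, *Gckr*, *Pklr*, *Pfkfb1*, *Pfkl*, *Khk* and *Txnip*, taken by their symbols from the 16540 genes of a liver RNA sequencing table. They were chosen for their place in the pathway and not by a threshold on their values, but with earlier results of these data known. All livers came from male *Apoe*-/- mice, which lack apolipoprotein E and develop high plasma cholesterol, on a Western diet, called a high cholesterol diet in the study's methods. One group of 4 mice received vehicle, named DMSO in the table, and the other group of 4 mice received isoginkgetin (ISOGK), a plant biflavonoid, at 20 mg/kg/day for 8 weeks by intraperitoneal injection. The labels number the mice 1 to 4 within each group, and say nothing more of litter or cage; age, and feeding state and hour at collection, were not given in the sources used here. The comparison asks how ISOGK altered RNA levels in the liver. *Apoe* itself had 3252 to 6489 counts in each library, so that the knockout cannot be read from gene counts and is taken from the labels.

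Glucose enters hepatocytes through the transporter GLUT2, encoded by *Slc2a2*, and the regulatory protein encoded by *Gckr* restrains its phosphorylation when glucose is low. The liver forms of phosphofructokinase (*Pfkl*) and pyruvate kinase (*Pklr*) then catalyze irreversible steps of glycolysis, while ketohexokinase (*Khk*) admits fructose below the phosphofructokinase step. Sugar metabolites activate the transcription factor ChREBP (*Mlxipl*), which with its partner MLX binds carbohydrate response elements at glycolytic and lipogenic genes, and *Pklr* and *Txnip* are classical genes with such an element.

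Because the elements at *Pklr* and *Txnip* are the best known sequences of this pathway, the promoters of the 8 genes were searched for them. RefSeq promoters (GRCm38.p6, 250 bases before to 50 after each start) were found for all 8 genes, 13 promoters in total. The element was written as CACGNG and CNCGNG separated by 5 bases, on either strand, a form taken from background knowledge of *Pklr* and *Txnip*, so that a match at these genes is no finding. The promoters that held it are shown with both parts of the element in capitals and with 20 bases on each side, and positions are counted from the RefSeq start of the promoter. The element of *Pklr* lies downstream of an earlier start of the gene, within its span.
*Pklr*, chr3:89136433-89136489, plus strand, element at -170 to -154 from the start: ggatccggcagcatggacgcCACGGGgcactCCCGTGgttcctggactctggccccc
*Txnip*, chr3:96557852-96557908, plus strand, element at -85 to -69 from the start: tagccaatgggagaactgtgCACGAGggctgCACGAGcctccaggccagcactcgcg

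This form occurred in 120 of 32851 promoters (0.365%) and in 0.652% of the promoters of tested genes. The palindromic E-box CACGTG, bound by many basic helix-loop-helix factors, was present at *Khk* and *Mlxipl*, as it was in 7.15% of all promoters and 9.83% of those of tested genes, and is shown in capitals.
*Khk*, chr5:30921468-30921513, plus strand, E-box at -71 to -66 from the start: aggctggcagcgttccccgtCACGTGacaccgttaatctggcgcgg
*Mlxipl*, chr5:135089772-135089817, plus strand, E-box at -98 to -93 from the start: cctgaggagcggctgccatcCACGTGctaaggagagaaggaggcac

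Neither pattern was found in the windows of *Gckr*, *Slc2a2*, *Pfkfb1* and *Pfkl*, which says only that these letters are absent there. A match is a description of the sequence and does not show binding.

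The libraries held 17457106 to 24461854 counts, and 12307 genes, among them all 8 described here, passed the filter on low counts. Levels are given as CPM, the counts of each library scaled to a common total with TMM factors, and a gene is said to have fallen or risen where the adjusted p of edgeR's quasi-likelihood test over the 12307 genes was under 0.05. By this test *Mlxipl*, *Slc2a2*, *Gckr* and *Pklr* fell with ISOGK, to between 41.1% and 63.8% of the vehicle mean, and none of the 8 rose. *Pfkfb1*, *Pfkl*, *Khk* and *Txnip* did not pass. Among all tested genes 929 passed (7.55%), of which 423 were lower (3.44%) and 506 higher (4.11%). The total was 511, 379, 496 and 550 without vehicle mouse 1, 2, 3 or 4 and 471 without ISOGK mouse 2, and the 4 genes passed in each of these fits. The same 4 genes had every ISOGK liver below every vehicle liver, as had 906 of the tested genes (7.36%). The median log2 fold change was -0.60 over the 8 genes and 0.00 over all tested genes. Since the 8 genes were chosen with earlier results known, such comparisons with all genes are no test of the set. *Mlxipl* and *Pklr* also had a log2 fold change below -1 with an adjusted p under 0.05, as had 77 of the tested genes (0.626%).

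**Figure D1:**
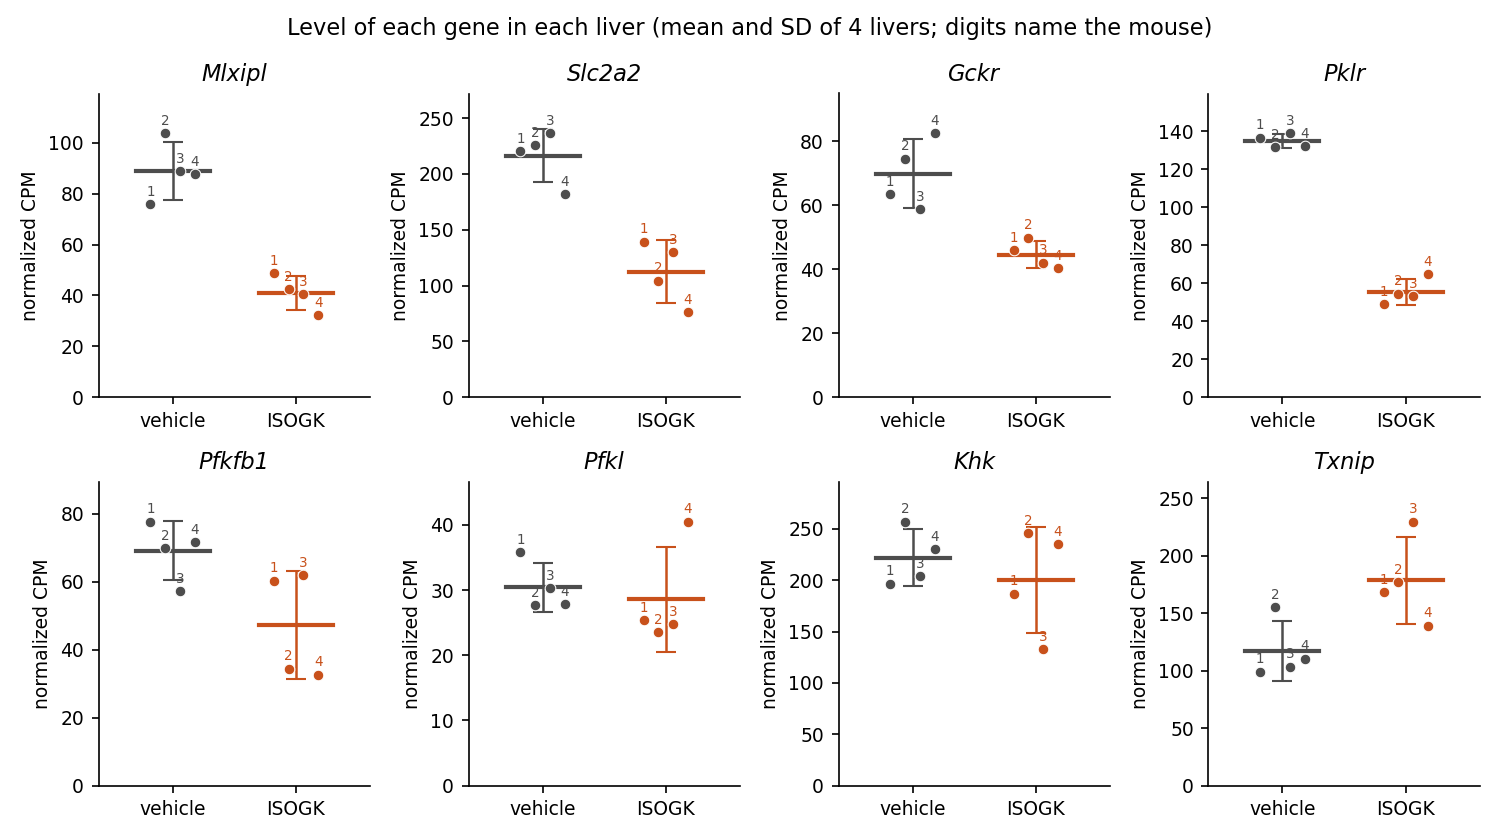
Level of each of the 8 genes in each liver, in normalized CPM on an axis from 0, with points for single livers (digits name the mouse), a thick line for the mean and bars for the SD of 4 livers. The groups do not overlap for *Mlxipl*, *Slc2a2*, *Gckr* and *Pklr*, and ISOGK mouse 4 has the lowest *Mlxipl* (32.3 CPM) and *Slc2a2* (76.4 CPM) but the highest *Pklr* (64.9 CPM) and *Pfkl* (40.5 CPM) of its group.

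Compared per kilobase of exon, the order of the vehicle means was *Khk* (123 ± 15.3 CPM per kb, SD, n = 4), *Pklr* (41.7 ± 1.08), *Slc2a2* (37.5 ± 4.13), *Txnip* (37.5 ± 8.30), *Pfkfb1* (17.2 ± 2.15), *Gckr* (16.1 ± 2.48), *Mlxipl* (16.1 ± 2.06) and *Pfkl* (4.56 ± 0.565). The ranges of mean ± SD overlapped among *Pklr*, *Slc2a2* and *Txnip*, although the means of *Slc2a2* and *Txnip* lay below the range of *Pklr*. They also overlapped among *Pfkfb1*, *Gckr* and *Mlxipl*. In ISOGK livers *Khk* was again highest (111 ± 28.8 CPM per kb), *Txnip* came next (57.2 ± 12.1) and *Slc2a2* (19.5 ± 4.91) and *Pklr* (17.1 ± 2.08) followed. *Pfkfb1* (11.8 ± 3.97 CPM per kb), *Gckr* (10.3 ± 0.979), *Mlxipl* (7.40 ± 1.22) and *Pfkl* (4.28 ± 1.198) had the lowest levels. Neighbours from *Slc2a2* down to *Gckr* did not differ beyond their spread.

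*Mlxipl*, which encodes ChREBP, spans bases 135089890 to 135138382 of chromosome 5 (GRCm38). Its level was 76.0, 104, 88.9 and 87.7 CPM in vehicle mice 1 to 4 and 48.7, 42.4, 40.5 and 32.3 CPM in ISOGK mice 1 to 4. The lowest vehicle liver was well above the highest ISOGK liver. The mean was 89.1 ± 11.4 CPM (SD, n = 4) with vehicle and 41.0 ± 6.75 CPM with ISOGK, a log2 fold change of -1.12 (standard error, SE, 0.13; adjusted p = 0.000908 by edgeR). By p *Mlxipl* ranked 23 of 12307 genes. In bulk liver, fewer cells of a type and less RNA per cell cannot be told apart. The table counts reads per gene symbol, and so does not separate the alpha and beta transcripts of *Mlxipl*, which begin at different promoters. Exons of *Gm43500*, a gene on the opposite strand that was not analysed here, share 235 bases with *Mlxipl*.

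The partner gene *Mlx* had 29.96 ± 3.14 CPM with vehicle and 29.5 ± 3.89 CPM with ISOGK, and the 95% interval of its log2 fold change (-0.02) ran from -0.27 to 0.23 (edgeR adjusted p = 0.938). *Mlxip*, which encodes the ChREBP paralogue MondoA, had a log2 fold change of -0.08 with an interval from -0.37 to 0.21 (edgeR adjusted p = 0.753). Within each liver there were 2.54 to 3.76 counts of *Mlxipl* per count of *Mlx* with vehicle and 0.924 to 1.67 with ISOGK. The ratio of this heterodimer's messages thus had no overlap between groups. Of the 9 tested genes of ChREBP, its partners and paralogue, 2 fell and none rose, and the median log2 fold change was -0.08. The other gene that fell was *Mga*, a MAX-binding repressor (22.3 ± 3.16 against 10.6 ± 3.14 CPM, log2 fold change -1.07, edgeR adjusted p = 0.00729).

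**Figure D2:**
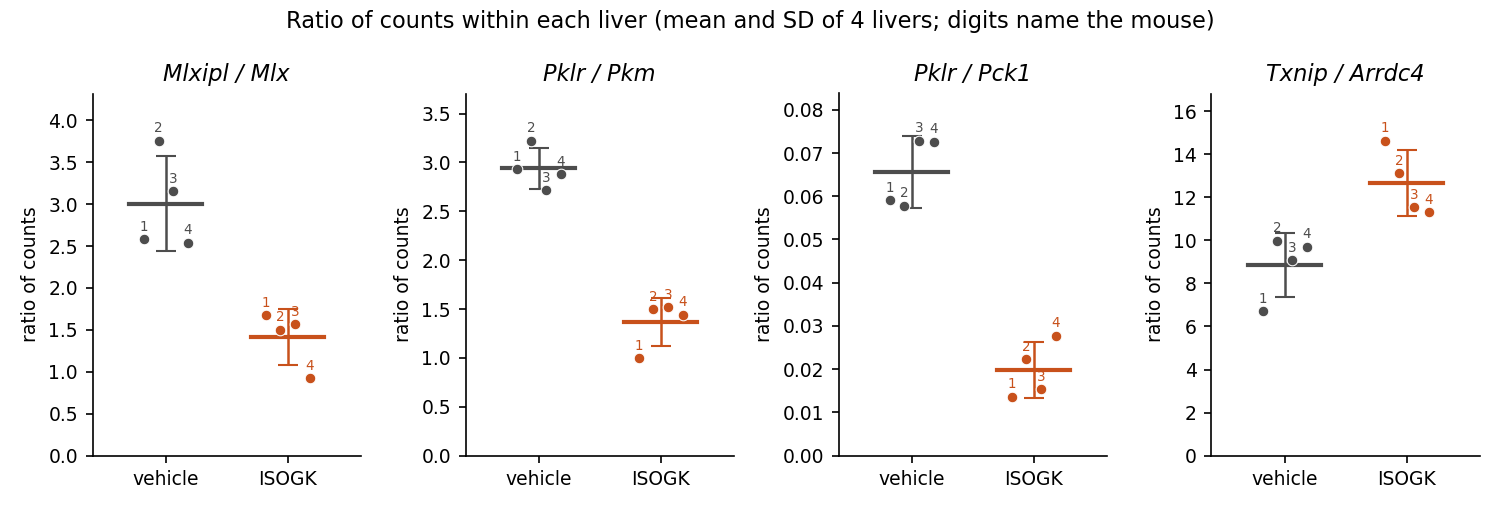
Ratio of the counts of 2 genes within each liver, on an axis from 0, with points for single livers (digits name the mouse), a thick line for the mean and bars for the SD of 4 livers. The ISOGK livers lie below all vehicle livers for *Mlxipl* to *Mlx*, *Pklr* to *Pkm* and *Pklr* to *Pck1*, and above them for *Txnip* to *Arrdc4*.

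At the entry of glucose, *Slc2a2* (chromosome 3, 28697903 to 28731359) had 220.1, 226, 237 and 182 CPM in vehicle mice 1 to 4 and 139, 104, 130.0 and 76.4 CPM in ISOGK mice 1 to 4. The ISOGK livers were all lower, with a wide spread among them. The vehicle mean was 216 ± 23.8 CPM (SD, n = 4) and the ISOGK mean 112 ± 28.3 CPM, or log2 fold change -0.94 (SE 0.17; adjusted p = 0.00783 by edgeR). *Slc2a2* was the only one of 11 tested sugar transporter genes that passed the test. Per kilobase it made up 76.3% ± 3.90 of the 7 *Slc2a* transporters compared in vehicle livers and 61.8% ± 4.22 in ISOGK livers, without overlap. *Slc2a1*, encoding the widely expressed GLUT1, had 11.3 ± 1.64 and 13.3 ± 3.12 CPM (log2 fold change 0.24, edgeR adjusted p = 0.439). The glucose 6-phosphate carrier gene *Slc37a4* had 160.3 ± 8.19 and 152 ± 20.6 CPM (edgeR adjusted p = 0.69). Over the transporter list the median log2 fold change was 0.05.

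*Gckr* (chromosome 5, 31297443 to 31327314) had 63.5, 74.6, 58.7 and 82.5 CPM in vehicle mice 1 to 4 and 46.0, 49.8, 42.0 and 40.3 CPM in ISOGK mice 1 to 4. The groups were separate, although vehicle mouse 3 was close to ISOGK mouse 2. The log2 fold change was -0.65 (SE 0.12; adjusted p = 0.00757 by edgeR). *Hk1*, *Hk2* and *Hk3*, which encode hexokinases, did not pass the test, and had log2 fold changes of 0.10, 0.00 and -0.45; *Hk3* passed without ISOGK mouse 1 (edgeR adjusted p = 0.0307).

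**Figure D3:**
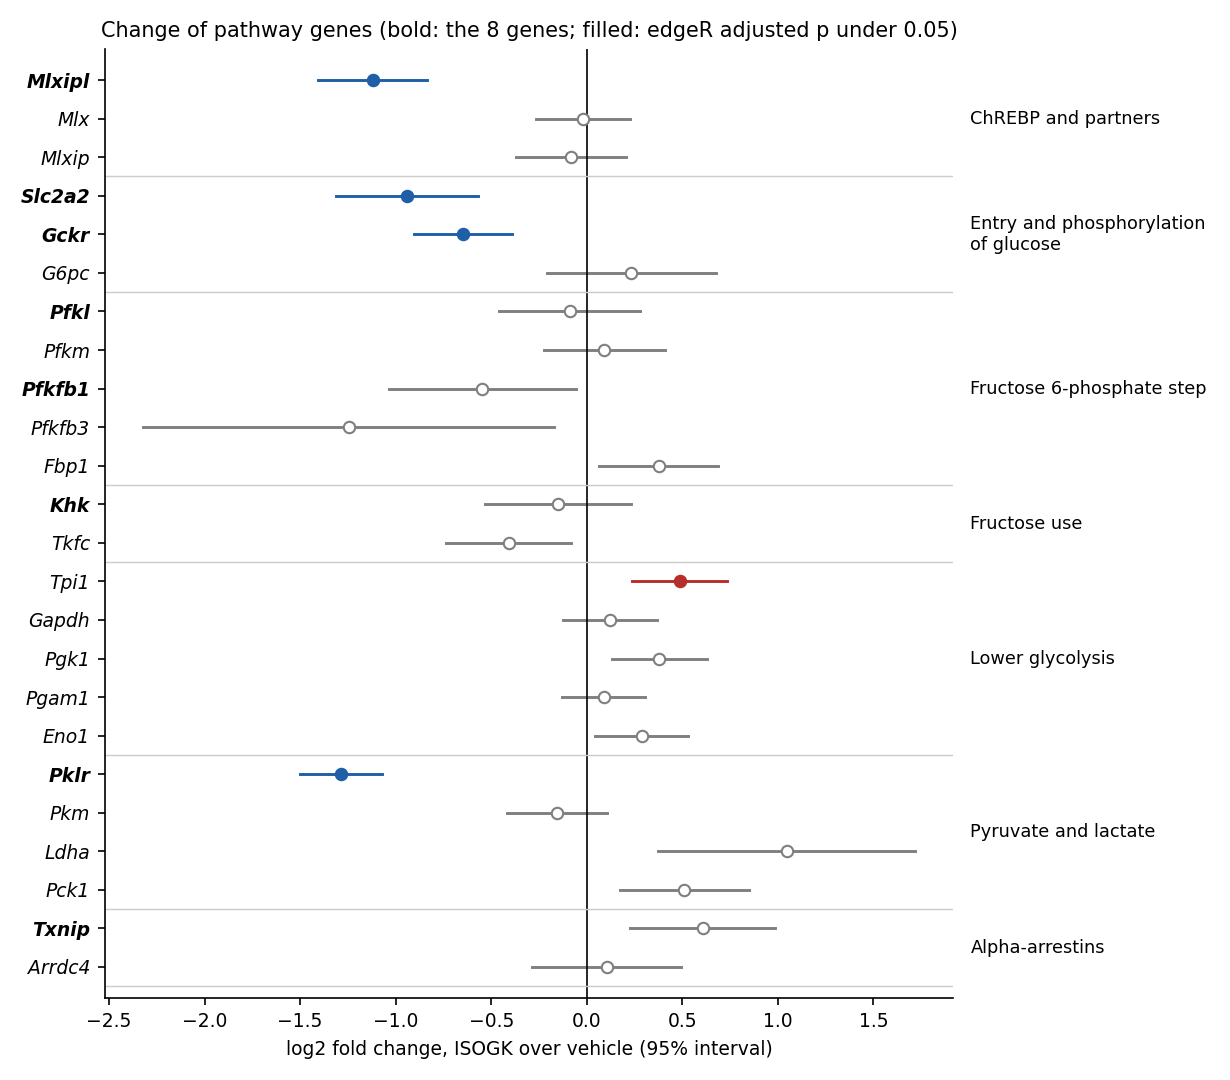
Log2 fold change of ISOGK over vehicle, with 95% intervals from edgeR's fit, for the 8 genes (bold) and other genes chosen from the lists to show each step; *Pfkm*, *Pfkfb3* and the genes between *Tpi1* and *Eno1* were chosen after their values had been seen. Filled symbols passed an adjusted p of 0.05. *Mlxipl* (-1.12), *Slc2a2* (-0.94), *Gckr* (-0.65) and *Pklr* (-1.28) have filled symbols below 0, while *Pfkfb3* (-1.25) and *Pfkfb1* (-0.55) have open ones, and *Gapdh* is at 0.12.

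*Pklr* gave the smallest p of the 8 genes, ranking 4 of 12307. It encodes the pyruvate kinase of liver and red cells, which catalyzes the last step of glycolysis, and lies on chromosome 3 from 89136142 to 89146784. It had 137, 132, 139 and 132 CPM in vehicle mice 1 to 4 and 49.0, 54.6, 53.2 and 64.9 CPM in ISOGK mice 1 to 4. The vehicle livers were nearly alike, with a coefficient of variation of 2.59%, and all ISOGK livers were far below them. The mean of 135 ± 3.50 CPM (SD, n = 4) with vehicle and 55.4 ± 6.73 CPM with ISOGK gave a log2 fold change of -1.28 (SE 0.10; adjusted p = 5.22e-05 by edgeR). The counts do not separate its liver and red cell transcripts, of which the former begins at the promoter with the element shown above.

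Exons of *Hcn3*, on the opposite strand, share 711 bases with those of *Pklr*, and whether reads were counted by strand was not given in the sources used here. *Hcn3* had 78 to 166 counts per vehicle library and 14 to 49 per ISOGK library (log2 fold change -1.61, edgeR adjusted p = 0.0149), against 2723 to 3572 and 941 to 1238 counts of *Pklr*. Reads of this pair may have been assigned to either gene, and the values of *Hcn3* are uncertain.

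*Pkm*, the pyruvate kinase gene of most other tissues, did not pass the test (46.2 ± 4.202 against 41.4 ± 6.79 CPM, log2 fold change -0.16, 95% interval -0.42 to 0.11, edgeR adjusted p = 0.465). Within each liver there were 2.72 to 3.22 counts of *Pklr* per count of *Pkm* with vehicle and 0.997 to 1.52 with ISOGK. Per kilobase *Pklr* made up 81.9% ± 1.04 of both pyruvate kinases with vehicle and 67.4% ± 4.54 with ISOGK. It thus remained the more abundant of the pair in every liver. *Pck1*, which encodes the gluconeogenic enzyme phosphoenolpyruvate carboxykinase, opposing pyruvate kinase, had 1822 to 2309 CPM with vehicle and 2339.9 to 3589.9 CPM with ISOGK. These ranges did not overlap, but *Pck1* did not pass the test over all genes (log2 fold change 0.51, edgeR adjusted p = 0.0679). It passed with the Wald test of DESeq2 (adjusted p = 0.0231) and without ISOGK mouse 4 (edgeR adjusted p = 0.0324), within a range of 0.0231 to 0.161 over all alternatives.

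**Figure D4:**
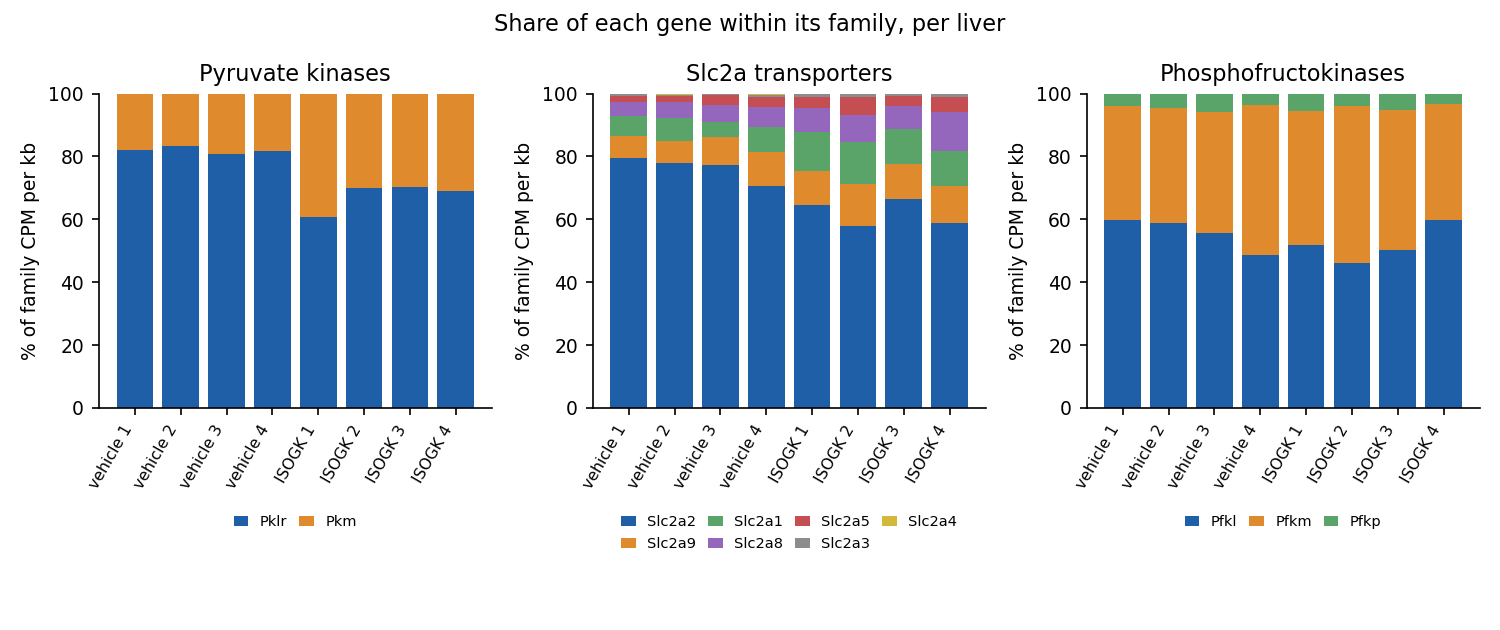
Share of each gene in the summed CPM per kb of its family in every liver, for pyruvate kinases, *Slc2a* transporters and phosphofructokinases, as bars stacked to 100%. The liver forms *Pklr* (80.8% to 83.3% with vehicle, 60.6% to 70.1% with ISOGK) and *Slc2a2* take a smaller share in each ISOGK liver than in any vehicle liver, while the shares of *Pfkl* overlap.

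The phosphofructokinase step was less clear. *Pfkl* (chromosome 10, 77986947 to 78010083) had 35.8, 27.7, 30.3 and 27.9 CPM in vehicle mice 1 to 4 and 25.4, 23.6, 24.8 and 40.5 CPM in ISOGK mice 1 to 4. The first 3 ISOGK livers were below all vehicle livers, and ISOGK mouse 4 was above them. The log2 fold change was -0.09 (standard error 0.17, 95% interval -0.46 to 0.28, edgeR adjusted p = 0.794), and -0.31 (edgeR adjusted p = 0.136) without ISOGK mouse 4, within a range of adjusted p of 0.136 to 0.994 over all alternatives. Without this mouse the call did not change. *Pfkl* made up 55.7% ± 4.95 of the phosphofructokinases per kilobase with vehicle and 52.0% ± 5.74 with ISOGK, with overlap.

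*Pfkfb1* encodes the liver form of the enzyme that makes and degrades fructose 2,6-bisphosphate, the allosteric activator of phosphofructokinase. It lies on the X chromosome from 150588229 to 150643878, and had 77.6, 69.8, 57.1 and 71.6 CPM in vehicle mice 1 to 4 and 60.3, 34.4, 61.9 and 32.6 CPM in ISOGK mice 1 to 4. ISOGK mice 2 and 4 were far below all vehicle livers, and ISOGK mice 1 and 3 lay among them. The log2 fold change was -0.55 (standard error 0.22, 95% interval -1.04 to -0.06), and the gene did not pass over all genes (edgeR adjusted p = 0.163). Exons of *Apex2* on the opposite strand share 123 bases with it, and *Apex2* had 170 to 311 counts per library. *Fbp1*, encoding the opposing fructose bisphosphatase, had 738 ± 59.5 and 957 ± 206 CPM (log2 fold change 0.38, edgeR adjusted p = 0.131).

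Of all 29 tested glycolysis genes 2 rose, *Bpgm* and *Tpi1*, *Pklr* and *Gckr* were among those that fell, and the median log2 fold change was 0.09. With the 4 genes described here left out, the same 2 of 25 rose, and the median was 0.10. *Bpgm*, which makes 2,3-bisphosphoglycerate, had 7.002 to 10.3 CPM with vehicle and 12.3 to 18.9 CPM with ISOGK (log2 fold change 0.71, edgeR adjusted p = 0.025), and did not pass without vehicle mouse 1 or 2 or ISOGK mouse 2 or 4 (log2 fold changes 0.68, 0.61, 0.73 and 0.57). *Tpi1*, encoding triose phosphate isomerase, had log2 fold change 0.49 (adjusted p = 0.0265 by edgeR), and did not pass without any one of the vehicle mice, without ISOGK mouse 2, or with library size as the only scaling, where its adjusted p ranged up to 0.0769. *Ldha*, which encodes lactate dehydrogenase A and was named after its values had been seen, had 746 to 981 CPM with vehicle and 1324, 1703, 1095 and 3085 CPM in ISOGK mice 1 to 4. All ISOGK livers were higher and ISOGK mouse 4 was far above the rest, and *Ldha* did not pass (log2 fold change 1.05, edgeR adjusted p = 0.0693). It passed in 5 of 16 alternatives, namely DESeq2, no robust option, a replicate block, and without ISOGK mouse 3 or 4, and its log2 fold change ranged from 0.65 to 1.22 over all of them.

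Of 6 tested enzymes that oppose glycolysis none passed edgeR's test in either direction, 5 had a positive log2 fold change and the median was 0.30. *G6pc*, which encodes the enzyme that releases glucose, had 292 ± 55.5 and 343 ± 90.3 CPM (log2 fold change 0.23, edgeR adjusted p = 0.52). In the pentose phosphate pathway, which branches from glucose 6-phosphate, 2 of 12 genes fell (*Shpk* and *Prps2*) and 2 rose (*H6pd* and *Rbks*), with a median log2 fold change of -0.13. *Shpk*, which encodes sedoheptulokinase, had 38.2 to 44.2 CPM with vehicle and 30.9 to 32.2 CPM with ISOGK (log2 fold change -0.43, edgeR adjusted p = 0.0106). *H6pd*, the microsomal glucose 6-phosphate dehydrogenase, had log2 fold change 0.46 (adjusted p = 0.0158 by edgeR) and did not pass with library size as the only scaling (0.33) or without vehicle mouse 1 or 3 (0.44 in both fits). *Prps2* (log2 fold change -0.47) and *Rbks* (0.65) each passed in 10 of 16 alternatives, and lost the call in fits without single mice, *Prps2* also with a replicate block (-0.46) and *Rbks* with library size as the only scaling (0.51). These were vehicle mouse 2, 3 or 4 or ISOGK mouse 1 or 2 for *Prps2* (-0.47, -0.43, -0.44, -0.46 and -0.44), and vehicle mouse 1, 2 or 3 or ISOGK mouse 2 or 4 for *Rbks* (0.53, 0.64, 0.63, 0.63 and 0.59).

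*Khk*, which encodes the enzyme that phosphorylates fructose, was the most abundant of the 8 genes and lies on chromosome 5 from 30921431 to 30931248. It had 197, 257, 204 and 230.1 CPM in vehicle mice 1 to 4 and 187, 246, 133 and 235 CPM in ISOGK mice 1 to 4. The groups overlapped, and ISOGK mouse 3 was the lowest liver. The mean was 222 ± 27.5 CPM (SD, n = 4) with vehicle and 200.1 ± 51.7 CPM with ISOGK (log2 fold change -0.15, 95% interval -0.53 to 0.23, edgeR adjusted p = 0.652), so that a change of the size seen for *Pklr* lies outside the interval. The counts do not separate the A and C forms of ketohexokinase.

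*Tkfc*, which encodes the kinase of the glyceraldehyde made in fructose breakdown, had 189.8 ± 26.7 and 143 ± 30.1 CPM (log2 fold change -0.41, edgeR adjusted p = 0.119), and passed with library size as the only scaling and without ISOGK mouse 4 (log2 fold change -0.55 in both). Among the 13 tested genes of fructose, sorbitol and galactose use, 2 fell (*Galm* and *Sord*) and 1 rose (*Glyctk*), with a median log2 fold change of 0.16. *Galm*, encoding galactose mutarotase, had 95.4 to 107 CPM with vehicle and 67.6 to 74.0 CPM with ISOGK (log2 fold change -0.54, edgeR adjusted p = 0.00322). *Sord*, whose enzyme makes fructose from sorbitol, had 991 ± 50.5 and 709.7 ± 108 CPM (log2 fold change -0.48, edgeR adjusted p = 0.0279), and did not pass without any one of the vehicle mice or without ISOGK mouse 2 (-0.51 to -0.45). *Glyctk*, the glycerate kinase gene, had log2 fold change 0.46 (adjusted p = 0.0465 by edgeR) and passed in 7 of 16 alternatives, but not in limma-voom, with library size as the only scaling (0.32) or without the robust option. Of the fits without 1 mouse it passed only in those without ISOGK mouse 2 or 3, and the others gave 0.37 to 0.50.

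*Txnip*, the other gene with the element, was the only one of the 8 with a higher mean in ISOGK livers. It encodes an alpha-arrestin that binds thioredoxin and restrains glucose uptake, and lies on chromosome 3 from 96557957 to 96561883. It had 99.3, 155, 104 and 110.5 CPM in vehicle mice 1 to 4 and 169, 177, 229.7 and 139 CPM in ISOGK mice 1 to 4. The ISOGK livers were higher except that ISOGK mouse 4 lay below vehicle mouse 2. The mean was 117 ± 25.9 CPM (SD, n = 4) with vehicle and 179 ± 37.7 CPM with ISOGK, and the log2 fold change of 0.61 (standard error 0.17, 95% interval 0.23 to 0.99) did not pass over all genes (edgeR adjusted p = 0.0566). *Txnip* passed without vehicle mouse 2 (log2 fold change 0.77, edgeR adjusted p = 0.025), without ISOGK mouse 4 (0.71, edgeR adjusted p = 0.0378) and in the Wald test of DESeq2 (0.61, adjusted p = 0.0129), within a range of adjusted p of 0.0129 to 0.149. Exons of the noncoding gene *Gm15441* on the opposite strand share 606 bases with *Txnip*, and *Gm15441* was not analysed here, so its reads may be among those of *Txnip*.

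*Arrdc4*, the alpha-arrestin gene closest to *Txnip* in its known response to glucose, had 13.3 ± 2.21 and 14.3 ± 3.81 CPM (log2 fold change 0.10, 95% interval -0.29 to 0.50, edgeR adjusted p = 0.772). There were 6.71 to 9.98 counts of *Txnip* per count of *Arrdc4* in vehicle livers and 11.3 to 14.6 in ISOGK livers, without overlap. Of the 9 tested alpha-arrestin and thioredoxin genes, none passed edgeR's test in either direction, and the median log2 fold change was 0.04; in the DESeq2 fit *Txnip* alone passed. *Txnrd1*, encoding cytosolic thioredoxin reductase, had 112 to 121 CPM with vehicle and 125 to 133 CPM with ISOGK, a small difference without overlap (log2 fold change 0.13, edgeR adjusted p = 0.346).

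The list of 25 tested genes known as ChREBP targets, which includes *Pklr*, *Slc2a2*, *Khk* and *Txnip*, did not move in 1 direction. In it 7 genes fell (*Pklr*, *Fasn*, *Acly*, *Thrsp*, *Slc2a2*, *Acaca* and *Elovl6*) and 3 rose (*Fgf21*, *Gpd1* and *Mttp*), and the median log2 fold change was -0.15. With the 4 genes described here left out, 5 of 21 fell and 3 rose, with a median of -0.12. *Fasn*, the fatty acid synthase gene, had 113 ± 21.6 CPM with vehicle and 54.4 ± 6.94 CPM with ISOGK (log2 fold change -1.06, edgeR adjusted p = 0.00163). *Fgf21*, which encodes a hormone released by the liver, had 1.204, 0.712, 1.597 and 1.30 CPM in vehicle mice 1 to 4 and 5.05, 12.2, 7.75 and 13.4 CPM in ISOGK mice 1 to 4, a log2 fold change of 2.99 (SE 0.34; adjusted p = 0.00122 by edgeR). *Gpd1*, whose enzyme makes glycerol 3-phosphate from a glycolytic intermediate, had 189 to 247 CPM with vehicle and 346 to 456 CPM with ISOGK (log2 fold change 0.85, edgeR adjusted p = 0.00178). *Elovl6* passed although its groups overlapped, and lost the call in 6 of the 8 fits without 1 mouse, namely all but those without vehicle mouse 4 or ISOGK mouse 3 (range of the alternatives -1.05 to -0.77). *Mttp* lost it with library size as the only scaling. Of the 21 targets with a promoter in the table, *Pklr* and *Txnip* alone held the element as written here.

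**Figure D5:**
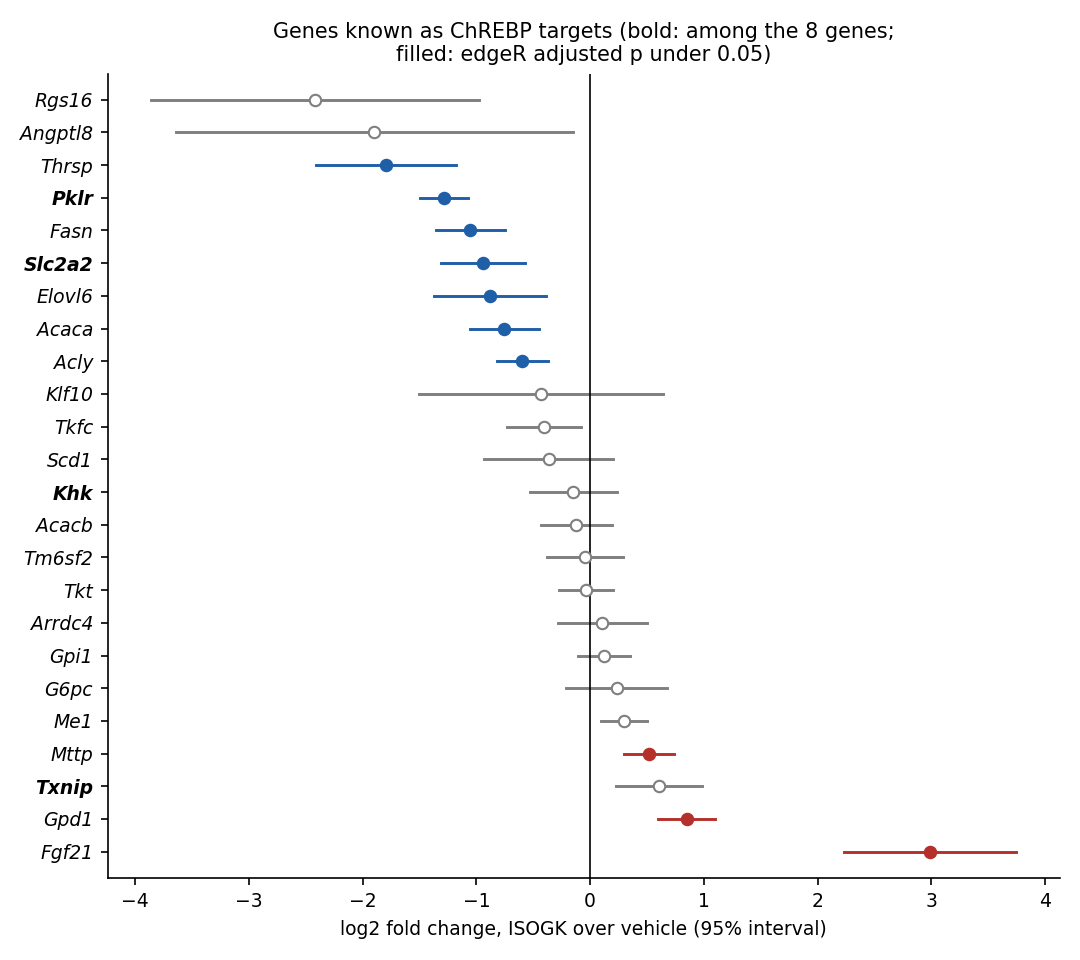
Log2 fold change of ISOGK over vehicle with 95% intervals for tested genes known as ChREBP targets, in order of the value, with filled symbols for an edgeR adjusted p under 0.05 and bold type for the genes described in full. *Pklr* (-1.28) and *Slc2a2* (-0.94) lie among the lower values, *Khk* (-0.15) near 0, and *Txnip* (0.61) among the higher values below *Gpd1* (0.85) and *Fgf21* (2.99).

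Of 27 tested regulators known to act on these genes, 2 fell and none rose, a share of 7.41% beside 7.55% of all tested genes. *Srebf1*, which encodes the lipogenic factor SREBP1, had 47.7, 67.9, 81.5 and 78.7 CPM in vehicle mice 1 to 4 and 20.6, 34.0, 16.8 and 19.3 CPM in ISOGK mice 1 to 4 (log2 fold change -1.60, edgeR adjusted p = 0.00592). *Thrb*, the main thyroid hormone receptor gene of the liver, had 26.9 ± 3.83 and 14.5 ± 3.32 CPM (log2 fold change -0.89, edgeR adjusted p = 0.00815). Both had all ISOGK livers below all vehicle livers.

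Genes were ranked by distance from *Mlxipl* over the 8 livers, the root mean square difference of log2 CPM relative to each gene's vehicle mean. This distance includes the difference between groups, so genes with a like fold change come near by construction. A near rank does not show that genes vary together within a group. In ISOGK livers *Mlxipl* was highest in mouse 1 and lowest in mouse 4, and *Pklr* the reverse. The nearest genes were *Ddah1* (0.133), *Nrn1* (0.154), *Fgfr3* (0.156) and *Pogk* (0.174). *Slc2a2* came at rank 14 of 12306 genes (0.217), *Pklr* at rank 60 (0.306) and *Gckr* at rank 179 (0.387), while *Txnip* was at rank 11578 (1.24). Nearest to *Pklr* were *Tpm2* (0.196), *Gpnmb* (0.199), *Sdr9c7* (0.221) and *Plekhf1* (0.225), and *Mlxipl* stood at rank 13 (0.306). *Gpnmb*, a gene of lipid-laden macrophages, had 161.9 ± 14.8 CPM with vehicle and 71.0 ± 5.45 CPM with ISOGK.

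Within the ISOGK group the 8 genes did not keep 1 order of livers. ISOGK mouse 4 had the lowest level of 5 of them (*Mlxipl*, *Slc2a2*, *Gckr*, *Pfkfb1* and *Txnip*) and the highest of *Pklr* and *Pfkl*. This library also had the lowest TMM factor (0.883, against 0.960 to 1.01 in the other ISOGK and 1.017 to 1.09 in the vehicle libraries), and the part of this in the values was not tested. *Mlxipl*, *Slc2a2*, *Gckr* and *Pklr* passed without this mouse as well.

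Hepatocyte markers were abundant in all libraries, with *Alb*, the most abundant of 6, at 105235 to 141273 CPM. None of these 6 markers passed edgeR's test, and their sum was 141183 to 153444 CPM with vehicle and 128413 to 165896 CPM with ISOGK. The sum of 6 Kupffer cell and macrophage markers was 962 to 1118 CPM with vehicle and 751 to 957 CPM with ISOGK, without overlap. *Cd5l* was the most abundant (577 to 667 and 407 to 560.4 CPM) and *Cd68* the only one that fell (log2 fold change -0.57, edgeR adjusted p = 0.009). Of the 6, 5 had a negative log2 fold change and 1, *Clec4f*, a positive one (0.06, edgeR adjusted p = 0.929). *Vsig4* was at 5.34 CPM in ISOGK mouse 4 and at 75.0 to 94.4 CPM in the other ISOGK livers. Macrophages express *Pkm*, *Hk3* and *Gpnmb*, and the part of these cells in the values of those genes was not tested. The sum of 4 cholangiocyte markers was 6.12 to 7.59 CPM with vehicle and 7.70 to 14.1 CPM with ISOGK, without overlap, and their median log2 fold change was 0.87. Of these *Sox9*, the most abundant, rose (log2 fold change 0.51, edgeR adjusted p = 0.0494), but passed in only 4 of 16 alternatives. It lost the call in every fit without 1 mouse, with DESeq2's size factors, with library size as the only scaling, with no filter beyond 1 count and with a replicate block (log2 fold changes 0.39 to 0.57 over all alternatives).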

How the data were processed

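Per the labels, RNA from 4 vehicle and 4 ISOGK livers was made into SMARTER mRNA-Seq libraries. The authors sequenced single-end Illumina reads, used HISAT2 as aligner and took raw gene counts from StringTie; the submitters' processing notes name the build mm10. Neither strand use nor Ensembl release was given in the sources used here. The deposited table holds unnormalized integer counts by gene symbol, 17457106 to 24461854 per library. Columns named DMSO were taken as vehicle. Counts come from reads without molecular identifiers.

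Genes were kept with filterByExpr (minimum count 10, minimum total 15), scaled by TMM and fitted in edgeR 4.0.16 (R 4.3.3) by quasi-likelihood with the robust option, without a replicate block, with Benjamini-Hochberg adjustment over 12307 genes. The common biological coefficient of variation was 0.164. Log2 CPM used a prior count of 2. Intervals are approximate, from the standard error and the fit's degrees of freedom. Exact permutation tests (two-sided) of the 8 genes, on log2 CPM, have 0.0286 as the smallest p that 4 against 4 allows, which *Mlxipl*, *Slc2a2*, *Gckr* and *Pklr* reached (exact p = 0.0857 for *Pfkfb1*, 0.0571 for *Txnip*, 0.486 for *Khk* and 0.6 for *Pfkl*). Since only the labels say that the libraries are separate mice, p-values measure the spread between these libraries. No 2 libraries of a group agreed within sampling noise (chi-square per gene 18.1 to 99.8).

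Exon lengths and coordinates are from GENCODE M21 (GRCm38), and promoters from RefSeq (GRCm38.p6). Family shares used genes with 1 gene model. As alternatives, DESeq2 1.42.0 (Wald test) and limma-voom (limma 3.58.1) were run, besides DESeq2's size factors, library size alone, 2 other filters, no robust option, a replicate block and each mouse left out, 16 in all. The tests were run first on simulated counts with known changes.

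Named genes were the 8 genes, comparators (*Pkm*, *Mlx*, *Mlxip*, *G6pc*, *Fbp1*, *Pck1*, *Arrdc4* and *Tkfc*), up to 4 genes per list that passed, by smallest adjusted p (the 2 most abundant where fewer than 2 passed), and the 4 genes nearest to *Mlxipl* and to *Pklr*; others, among them *Hk1*, *Hk2*, *Hk3*, *Slc2a1*, *Tpi1* and *Ldha*, were chosen after their values had been seen. The 8 genes and the lists were chosen with earlier results of these data known, and the targets and regulators come from background knowledge. Marker lists were also made for endothelium, stellate cells, lymphocytes, skeletal muscle, adipocytes, red cells and pancreas. None of 5 endothelial, 5 stellate, 2 lymphocyte, 4 red cell and 1 pancreatic markers tested passed edgeR's test in either direction. The red cell markers *Hba-a1*, *Hbb-bs* and *Hbb-bt* had log2 fold changes of 0.59, 0.97 and 0.89, and *Alas2* had -0.32. Without ISOGK mouse 3, *Hba-a1*, *Hbb-bs* and *Hbb-bt* passed (edgeR adjusted p = 0.0324, 0.000196 and 0.00670). The 10 muscle markers and *Cfd*, the only adipocyte marker in the table (at most 0.581 CPM), were below the filter.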

Additional observations from a re-analysis of the deposited data

Results flagged for a closer look

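Of 110 sets of 4 livers examined, 5 had 1 liver far from the other 3, by its gap to the nearest liver over the range of the group, and 5.5 are expected by chance. *Pfkl* was highest in ISOGK mouse 4 (gap 0.896 of the range), at 40.5 CPM against 23.6 to 25.4 CPM. *H6pd* was lowest in ISOGK mouse 1 (0.893), at 696 CPM against 824 to 839.8 CPM. Vehicle mouse 4 had the most genes detected (0.879), 15369 against 14997 to 15042.

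Skeletal muscle markers were highest in vehicle mouse 4 (0.993), where all 10 of 10 had their highest level. Their sum was 80.5 CPM there and at most 0.584 CPM in any other library, with *Myh4* the most abundant (20.1 CPM). The muscle isoform *Pfkm* was at 13.7 CPM in this liver and at 8.66 to 10.9 CPM in the other vehicle livers, and the part of muscle RNA in this was not tested. Without vehicle mouse 4, *Mlxipl*, *Slc2a2*, *Gckr* and *Pklr* passed as before. Red cell markers were lowest in ISOGK mouse 3 (0.947), with a sum of 60.2 CPM against 126.7 to 130.4 CPM in the other ISOGK livers. Without ISOGK mouse 3 the red cell markers *Hba-a1*, *Hbb-bs* and *Hbb-bt* passed as higher with ISOGK, and *Alas2* did not pass. *Pklr* is also expressed in red cells, and the part of these cells in its level was not tested; *Pklr* was at 53.2 CPM in ISOGK mouse 3 and at 49.0 to 64.9 CPM in the others.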

How the results depend on the processing

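*Mlxipl*, *Slc2a2*, *Gckr* and *Pklr* passed in all 16 alternatives. Among the fold changes of the 8 genes, 125 of the alternative values gave the same call and 3, all of *Txnip*, newly passed; its log2 fold change was 0.61 in DESeq2 and 0.46 to 0.77 with 1 mouse left out. For the other named genes 507 values gave the same call, 33 no longer passed and 4 newly passed, and of the list counts 45 moved by over 1.5 times and 243 did not.

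Over all genes, 506 were higher and 423 lower. DESeq2 gave 765 and 670, library size alone 262 and 804, and the fits without 1 mouse 219 to 712 and 160 to 523. Library size alone shifted the median log2 fold change of all genes by -0.13, and turned a majority of higher calls into a majority of lower calls; the cause of the other moves was not tested beyond the smaller groups. Mice with the same number did not deviate together (correlations 0.013, -0.014, 0.075 and 0.085), and the fit with a replicate block called 827 genes, 688 of them shared, with 411 higher and 416 lower.

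The 95% intervals of *Pfkfb1* and *Txnip* lie on 1 side of 0, but both genes missed the threshold after adjustment over 12307 genes; whether larger groups would alter this was not tested.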
